A study of Mus musculus with 3 samples.

Results

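Serpins are protease inhibitors that trap their target: the protease cuts an exposed loop of the serpin, the serpin refolds, and both proteins stay locked together. Clade B serpins lack a classical secretion signal and act mostly inside cells, where those of leukocytes shield the cell from its own granule and lysosomal proteases. Here 9 serpin genes were read in CD11b+ dendritic cells (DCs) of mouse spleen, Serpinb10, Serpinb2, Serpinb8, Serpinb1a, Serpinb6a, Serpinb6b, Serpinb9, Serping1 and Serpina3g. They were selected on the log2 values of these same 3 arrays, which were known when the list was drawn up, so their differences below are descriptions. Of the 9, 8 have a probe set whose annotation names that gene alone, among 19938 genes read this way, and 40 other serpin genes serve as comparison. No single-gene probe set of Serpina3g was found, and it is not analysed here.

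The study compared sorted CD11c(hi) CD11b+ cells in 3 groups with 1 Affymetrix Mouse Gene 1.0 ST array each. The first group was Esam(lo) GFP(hi) cells of RBPJflox/flox CD11c-Cre+ mice, in which Cre made in CD11c-expressing cells deletes Rbpj, the nuclear partner of Notch receptors. The others were Esam(hi) GFP(lo) and Esam(lo) GFP(hi) cells of RBPJflox/flox littermates without Cre, and mice of all groups carried the Cx3cr1-GFP reporter. Spleens of 2 to 3 mice were pooled for a sort, and the labels give no ages. No group has a replicate, so no error and no test can be given, every difference sets one array against another, and their number limits the precision.

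Rbpj itself had log2 values of 10.04 on the array labelled RBPJ-deficient, 9.85 on the control Esam(hi) array and 9.85 on the control Esam(lo) array. Rbpj has 2 probe sets, and these values are those of the brightest, while the other is not shown here. By the brightest, Rbpj was not lower where its deletion is labelled. The position of its probes relative to the deleted part is not known here. Esam read 6.12, 7.79 and 6.57 on the same arrays. Values count as above background when they exceed the 95th percentile of 1194 odorant and vomeronasal receptor genes on that array, which was 6.87, 7.17 and 6.76. On each of the arrays 41.0 to 47.8% of genes were above it. Of the DC markers Zbtb46, Flt3, Itgax, Dpp4, Ccr7, H2-Ab1, Irf4 and Kit, 8 of 8 were above background on all 3 arrays.

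Serpinb10, also called bomapin, lies on mouse chromosome 1 between Serpinb2 and Serpinb8, with no other protein-coding gene between the 3. Their promoters are shown because the neighbours differed so much in the array values that follow. Each window runs from 250 bases before to 50 bases after an annotated start site (RefSeq, GRCm38.p6, plus strand). Capitals mark matches, on either strand, to the RBPJ core TGGGAA, the PU.1 motif GAGGAAG, the C/EBP motif TTGCNNAA or the AP-1 motif TGANTCA. No match overlaps another.
Serpinb10, chr1:107528753-107529052: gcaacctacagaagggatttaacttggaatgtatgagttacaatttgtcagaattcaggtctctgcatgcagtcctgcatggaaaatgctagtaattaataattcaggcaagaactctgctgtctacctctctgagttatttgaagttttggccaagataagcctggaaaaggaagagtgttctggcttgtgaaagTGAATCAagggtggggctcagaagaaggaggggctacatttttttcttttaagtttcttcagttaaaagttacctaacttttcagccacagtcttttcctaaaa
Serpinb2, chr1:107511260-107511559, the downstream one of 2 listed starts: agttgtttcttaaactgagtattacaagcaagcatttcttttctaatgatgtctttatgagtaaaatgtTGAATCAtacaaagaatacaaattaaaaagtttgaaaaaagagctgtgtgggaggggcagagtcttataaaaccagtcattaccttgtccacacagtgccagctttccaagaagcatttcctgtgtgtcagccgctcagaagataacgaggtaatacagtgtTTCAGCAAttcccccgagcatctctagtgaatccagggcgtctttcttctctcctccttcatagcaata
Serpinb8, chr1:107589756-107590055: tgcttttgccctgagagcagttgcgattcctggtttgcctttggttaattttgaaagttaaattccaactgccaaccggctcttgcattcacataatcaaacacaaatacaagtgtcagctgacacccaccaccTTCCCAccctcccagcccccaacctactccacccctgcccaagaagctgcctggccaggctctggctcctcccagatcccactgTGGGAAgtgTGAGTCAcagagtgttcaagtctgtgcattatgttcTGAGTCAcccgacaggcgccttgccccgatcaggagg
The Serpinb10 window held 1 match, TGAATCA, to the AP-1 pattern TGANTCA at position -54 relative to the start site. That pattern accepts any middle base, so its matches are not all alike. The Serpinb2 window held an AP-1 match of the same letters and a C/EBP match. The Serpinb8 window held RBPJ core matches on both strands and a pair of AP-1 matches, each TGAGTCA. Of 32851 promoter windows in the table, 25.6% held the RBPJ core, 13.6% the PU.1, 10.8% the C/EBP and 7.81% the AP-1 motif. A match describes letters and does not show that a factor binds.

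Serpinb10 (probe set 10349166), whose human form inhibits trypsin and thrombin in the test tube, was the one listed serpin at least 2-fold apart in any comparison. Its log2 value was 9.73 on the array labelled RBPJ-deficient, 5.86 on the control Esam(hi) array and 10.34 on the control Esam(lo) array. It was thus high on both Esam(lo) arrays and below background on the Esam(hi) array. Against background there, Serpinb10 was at least 8.997-fold lower in control Esam(hi) than in control Esam(lo) cells. The difference of the readings was -4.48, but with the Esam(hi) reading below background the bound is what was measured, and the gene has no rank among others. In bulk RNA, fewer cells with the transcript and less transcript per cell cannot be told apart.

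**Figure D1:**
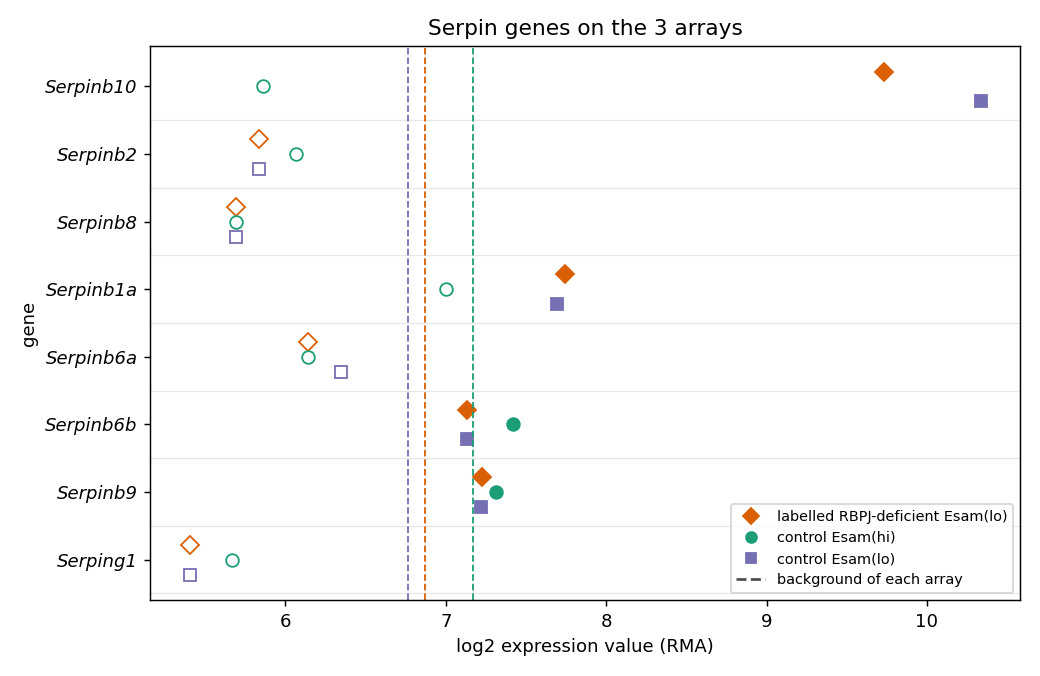
Log2 values (x axis) of the 8 serpin genes (rows) on the array labelled RBPJ-deficient (diamonds), the control Esam(hi) array (circles) and the control Esam(lo) array (squares), 1 array each. Filled symbols are above that array's background (dashed lines at 6.87, 7.17 and 6.76). Serpinb10 stands at 9.73 and 10.34 on the Esam(lo) arrays and at 5.86 on the Esam(hi) array.

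The array labelled RBPJ-deficient was close to its Esam(lo) counterpart but not equal to it for Serpinb10. The value was 1.52-fold lower there than in control Esam(lo) cells (difference -0.60), short of 2-fold, and its difference was number 47 from the lowest of 9348 genes above background. Against the control Esam(hi) array Serpinb10 was at least 5.92-fold higher on the labelled array (difference of the readings 3.88). Both comparisons with control Esam(hi) share that array.

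The genomic neighbours of Serpinb10 did not follow it. Serpinb2 (10349157), or plasminogen activator inhibitor 2, which inhibits urokinase, read 5.83 on the labelled array, 6.07 on the control Esam(hi) array and 5.83 on the control Esam(lo) array. Serpinb8 (10349174), whose human form inhibits furin in the test tube, read 5.69 on each array. Neither was above background on any array. Exact ties such as these are common, covering 52.0% of genes between the labelled and control Esam(lo) arrays. Such ties can arise when RMA condenses probes over few arrays, so they do not show equal expression.

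Among the chromosome 13 serpins, Serpinb1a (10408557), an inhibitor of neutrophil elastase and cathepsin G, differed in the same direction as Serpinb10, with bounds short of 2-fold. It read 7.74 on the labelled array, 7.001 on the control Esam(hi) array and 7.69 on the control Esam(lo) array, so that the Esam(lo) arrays were above background and the Esam(hi) array was not. Against background, Serpinb1a was at least 1.44-fold lower in control Esam(hi) than in control Esam(lo) cells (difference -0.69) and at least 1.49-fold higher on the labelled than on the control Esam(hi) array (0.74). By readings at least 1.5-fold apart, 2 of 8 listed serpins, Serpinb10 and Serpinb1a, were lower in control Esam(hi) than in control Esam(lo) cells and none higher. Of the 8, 4 were above background in this comparison and could be counted, and of all genes above background 32.0% were lower and 4.4% higher. In labelled against control Esam(hi) cells the same 2 of 8 were higher, where 32.4% of those above background among all genes stood higher and 5.67% lower. In labelled against control Esam(lo) cells 1 of 8, Serpinb10, was lower, where 0.513% of genes above background were lower and 0.396% higher. Between the labelled and the control Esam(lo) array Serpinb1a differed by 0.05.

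Serpinb9 (10404429), the inhibitor of granzyme B that protects cytotoxic and antigen-presenting cells, was above background on all 3 arrays by a small margin. It read 7.22 on the labelled array, 7.31 on the control Esam(hi) array and 7.22 on the control Esam(lo) array, so the arrays lay within 0.10 of each other. The difference of Serpinb9 between control Esam(hi) and control Esam(lo), 0.10, turned to -0.02 when each array was centred on its median, a step that shifts all genes by 0.11. Serpinb6b (10404422) read 7.13, 7.42 and 7.13 in the same order, also above background on all 3 arrays, with the highest value on the control Esam(hi) array (difference 0.28). Serpinb6a (10408600), whose human counterpart inhibits cathepsin G, was below background throughout, at 6.14, 6.14 and 6.35. Serpinb1a, Serpinb6a, Serpinb6b and Serpinb9 have close paralogs near them on chromosome 13, and their probes may share signal with these.

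Serping1 (10484463) on chromosome 2 encodes C1 inhibitor, the secreted brake on the first complement proteases and on plasma kallikrein. It read 5.40 on the labelled array, 5.67 on the control Esam(hi) array and 5.40 on the control Esam(lo) array, never above background. Its higher reading on the control Esam(hi) array (difference 0.27) has company: the 10742 genes below background in this comparison had a median difference of 0.08, and 24 of 40 other serpins read higher there and none lower.

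By the rule of 2-fold with the brighter array above background, 1 of 8 listed serpins was lower and none higher in control Esam(hi) than in control Esam(lo) cells. Again 4 of the 8 were above background and could be counted, while the shares over genes take in only those above background, of which 11.6% were lower and 0.816% higher. On the labelled array against control Esam(lo), 0 of 8 were lower or higher, where 0.193% of genes above background were lower and 0.0749% higher. On the labelled array against control Esam(hi), 1 of 8 was higher and none lower, where among all genes above background 12.9% stood higher and 1.18% lower. The single gene was Serpinb10 in both cases. The medians of the 8 differences were 0.05, 0.00 and -0.04 in these comparisons, beside 0.00 in each over all 19938 genes, dim ones included in both. Of the 8, 4 were above background on at least 1 array and 2 on all 3.

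**Figure D2:**
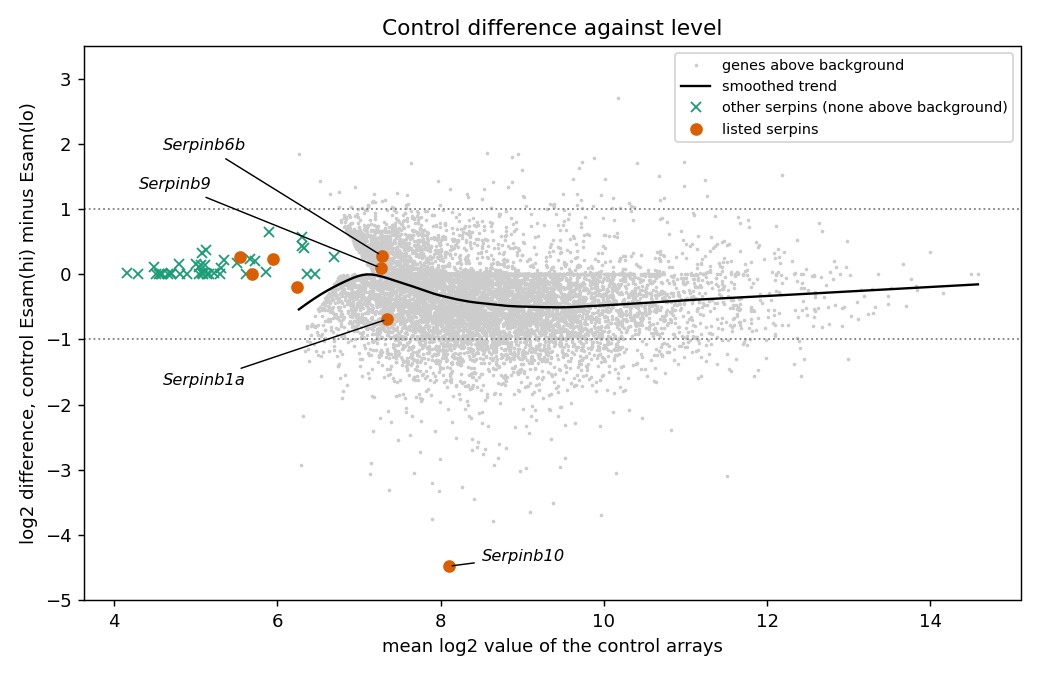
Difference between the control arrays, Esam(hi) minus Esam(lo) (y axis, log2), against the mean of both (x axis, log2), for genes above background (grey), the 8 listed serpins (orange) and 40 other serpins (crosses). The line is the smoothed trend and dotted lines mark 2-fold. Serpinb10 is drawn at -4.48 from a control Esam(hi) reading below background, while Serpinb1a (-0.69), Serpinb9 (0.10) and Serpinb6b (0.28) lie among the bulk.

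None of the 40 other serpin genes was above background on any array. Their highest values were those of Serpinf2, the plasma inhibitor of plasmin, at 6.49 on the labelled array, 6.83 on the control Esam(hi) array and 6.57 on the control Esam(lo) array. Differences between control Esam(hi) and control Esam(lo) ran from 0.00 to 0.65, and 16 of the 40 genes had the same value on all 3 arrays. These 40 include 17 of clade B. A further 5 probe sets annotated to several serpins at once, of the Serpina1 and Serpinb9 groups, were not above background either.

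The genes whose values over the 3 arrays were most like those of Serpinb10 were sought among 9691 others above background on at least 1 array. Genes with provisional symbols (such as Gm or Rik names) count in that number but were left out of the ranking. Likeness was the Euclidean distance between log2 values after the mean of each gene was subtracted. The closest was Adgre4, an adhesion G protein-coupled receptor gene, at a distance of 0.51. Wfdc17 followed at 0.61, then Clec12a, an inhibitory myeloid lectin, at 0.68, Fn1, encoding fibronectin, at 0.69 and the lectin gene Clec4a3 at 0.76. Adgre4 read 10.45 on the labelled array, 6.74 on the control Esam(hi) array and 10.53 on the control Esam(lo) array. Serpinb10, Adgre4, Clec12a and Clec4a3 were below background on the control Esam(hi) array, so these distances and their order rest in part on readings that are not measured levels. Over 3 arrays such likeness says little more than that a gene was low on the Esam(hi) array by a similar amount. Serpinb10 had a lower difference between the labelled and the control Esam(lo) array (-0.60) than each of the 5, which ranged from -0.15 for Fn1 to 0.31 for Clec12a. This holds for these 5 only: the monocyte marker Ace, not among them, had a still lower difference (-0.93).

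**Figure D3:**
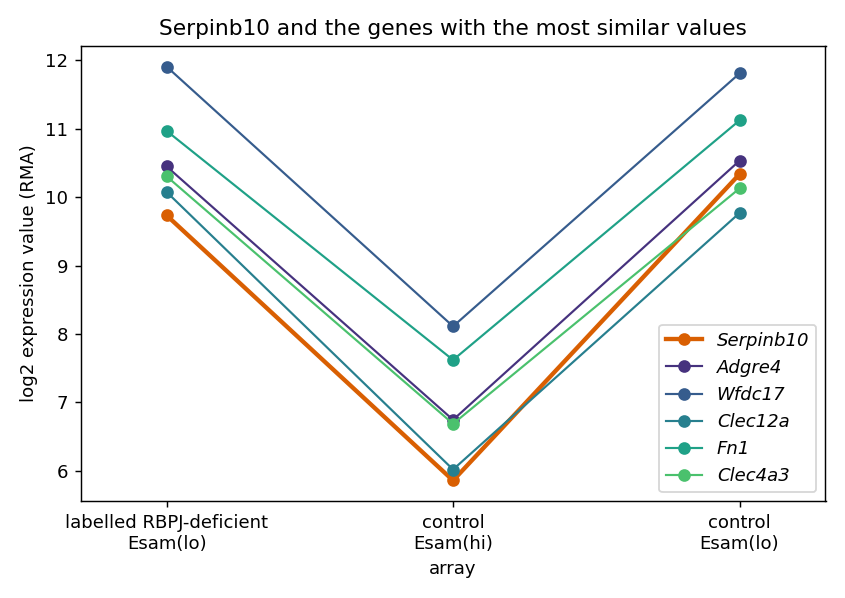
Log2 values (y axis) of Serpinb10 (thick line) and the 5 genes of most similar pattern (provisional symbols left out) on the 3 arrays (x axis), 1 point per array, joined for legibility. All 6 are lowest on the control Esam(hi) array, and Serpinb10 reads 9.73 on the labelled array and 10.34 on the control Esam(lo) array.

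Most monocyte markers, and part of the neutrophil and macrophage markers, differed in the same direction as Serpinb10. Beside the counts that follow, 11.6% of all genes above background were lower (4.23% with the level trend removed). Of the monocyte markers, 9 of 11 above background were lower by 2-fold or more in control Esam(hi) than in control Esam(lo) cells, and none was higher (8 of 11 lower with the trend removed). The 9 include Cx3cr1 (9.58 on the labelled, 8.32 on the control Esam(hi) and 9.58 on the control Esam(lo) array). Its GFP reporter was part of the sort, so its difference follows from the gate, and it is also in the sums below. The summed signal of the 11 (antilogs of the log2 values) was 30200 on the labelled array, 13500 on the control Esam(hi) array and 30900 on the control Esam(lo) array. Nr4a1 read 13.36 on each array, and without it the other 10 summed to 19600, 2970 and 20300. Between the Esam(lo) arrays the monocyte markers had a median difference of 0.00. Ace, a marker of nonclassical monocytes, was 1.91-fold lower on the labelled array than on its Esam(lo) control, at 9.98 against 10.91. The rest of the list did not follow Ace as a set: Treml4 differed by -0.03, Cx3cr1 by 0.00 and F13a1 by 0.51. Of 11 neutrophil markers 6 were lower and none higher (2 lower and 1 higher with the level trend removed), with sums over 12 genes of 22000, 9350 and 20100 in the same order. Elane, Mpo and Mmp9 of that list read higher in control Esam(hi) than in control Esam(lo), by 0.35, 0.96 and 0.76. For macrophage markers 3 of 8 were lower (1 of 8 with the trend removed), with sums over 12 genes of 6850, 4060 and 7150, and Mertk, Cd163 and Marco were below background on all 3 arrays. The sums of the 8 DC markers were 33500, 31900 and 33500, with none 2-fold apart (1 of 8, Ccr7, with the trend removed). NK cell markers summed to 2000, 1170 and 2000, B cell markers to 857, 642 and 789, T cell markers to 1340, 1300 and 1410, mast cell or basophil markers to 382, 415 and 383, platelet markers to 284, 336 and 277, and erythroid markers, none above background, to 127, 175 and 127. The largest term was Klrd1 in the NK sums, Cd79b in the B cell sums and Cd4 in the T cell sums. Only 2 of 8 NK, 2 of 5 B cell and 2 of 5 T cell markers were above background on any array. Readings below background are part of these sums, so they do not measure those cell types. Ncr1, Gzmb and Prf1 of NK cells, Cd79a and Ms4a1 of B cells, Cd3d and Cd3g of T cells, Cpa3 of mast cells and Pf4 of platelets were below background on all 3 arrays. Of the same lists Klrd1 (10.60, 9.46 and 10.60), Nkg7, Cd79b (9.29, 8.20 and 9.12), Cd3e and Cd4 were above background on all 3, Mcpt8 on both Esam(lo) arrays, and Blk and Itga2b on the control Esam(hi) array. The part of these cell types in the Serpinb10 values was not tested.

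Serine proteases that clade B serpins inhibit stayed within 2-fold. Of 12 listed serine proteases 5 were above background, and 0 of 5 were 2-fold apart in any of the 3 comparisons. Of all genes above background, 12.4% were 2-fold apart between the control arrays. On the labelled array 0.267% were so against control Esam(lo) and 14.1% against control Esam(hi). With 5 genes, a count of 0 is near these shares and does not set the proteases apart. Elane, neutrophil elastase, read 8.74 on the labelled array, 8.95 on the control Esam(hi) array and 8.60 on the control Esam(lo) array. Ctsg, cathepsin G, read 7.69, 7.43 and 7.08, and Prtn3, proteinase 3, read 7.49 on each. Ctsg was 1.52-fold higher on the labelled than on the control Esam(lo) array (difference 0.61). That difference was number 33 from the highest of 9348 genes above background. Furin, which cuts proproteins, read 9.62, 9.09 and 9.77. The granzyme genes Gzma, Gzmb, Gzmk and Gzmm, whose products are held in cytotoxic granules, were below background on all 3 arrays. These proteases, and the other list members named here that were not 2-fold apart, were named after their values were seen.

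Cysteine proteases stood lower in control Esam(hi) than in control Esam(lo) cells, 5 of 10 above background by at least 2-fold and none higher, where 11.6% of all genes above background were lower. With the level trend removed it was 2 of 10, beside 4.23%, and the median of all genes above background was itself -0.32 as deposited. Ctsb, cathepsin B, read 11.05 on the labelled array, 9.34 on the control Esam(hi) array and 11.13 on the control Esam(lo) array. Ctss, cathepsin S, which trims the invariant chain of MHC class II, read 11.59, 10.22 and 11.60. Casp1 and Casp4, the inflammatory caspases, read 8.64 and 8.63 on the labelled array, 7.27 and 7.33 on the control Esam(hi) array, and 8.40 and 8.66 on the control Esam(lo) array. Ctsc, which activates granule serine proteases, read 12.04, 10.57 and 11.74, and Lgmn, the asparaginyl endopeptidase, read 10.81, 9.73 and 10.69. On the labelled array 7 of 10 were at least 2-fold higher than on the control Esam(hi) array (3 of 10 with the trend removed), beside 12.9% of genes above background (4.85%). None of the 10 was 2-fold apart from the control Esam(lo) array, beside 0.267% of genes above background.

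The next list joins genes of the plasminogen system, where Serpinb2 inhibits urokinase, with the coagulation genes Thbd, Tfpi, Tfpi2 and F3. Of its 6 genes above background, 4, Thbd among them, were lower by 2-fold or more in control Esam(hi) than in control Esam(lo) cells. None was higher. Plaur, the urokinase receptor, read 10.87 on the labelled array, 9.78 on the control Esam(hi) array and 11.23 on the control Esam(lo) array. S100a10 and Anxa2, which form a plasminogen-binding complex, differed by -2.17 and -1.83 between control Esam(hi) and control Esam(lo). Thbd, thrombomodulin, was at least 2.56-fold lower on the control Esam(hi) array, with values of 6.25 there and 8.53 on the control Esam(lo) array. Plau, urokinase itself, read 7.11 on the labelled array, 6.85 on the control Esam(hi) array and 7.37 on the control Esam(lo) array, and Plat was below background on all 3 arrays. With the level trend removed the count was again 4 of 6, and the shares over all genes above background are those given for the cysteine proteases.

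Of the complement and contact system, which C1 inhibitor controls in part, 5 of 14 genes on the array were above background. None of these 5 is a C1 protease gene. C1qb, a chain of the complement starter C1q, was the 1 gene at least 2-fold lower, at 9.06 on the labelled array, 7.42 on the control Esam(hi) array and 9.06 on the control Esam(lo) array. The C1 protease genes C1ra, C1s1 and C1s2 were below background on all 3 arrays, as was Serping1. Of other protease inhibitors, 3 of 8 were lower by 2-fold or more in control Esam(hi) than in control Esam(lo) cells (1 of 8 with the level trend removed). Of all genes above background 11.6% were lower (4.23% with the trend removed). The same shares stand beside C1qb among the 5 complement genes, and a count of 1 gene in so short a list says little. Wfdc17, of the whey acidic protein family, read 11.91, 8.11 and 11.81 on the labelled, control Esam(hi) and control Esam(lo) arrays. Cst3, cystatin C, read 13.09, 11.80 and 13.10, and Cstb, cystatin B, read 8.81, 7.50 and 8.56. Spint1, a membrane inhibitor of trypsin-like proteases, was the inhibitor that differed by 2-fold or more between the Esam(lo) arrays, at 9.22 on the labelled array against 10.62 on the control Esam(lo) array, with 10.13 on the control Esam(hi) array. Between the Esam(lo) arrays 0.193% of genes above background were lower by 2-fold or more on the labelled one.

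**Figure D4:**
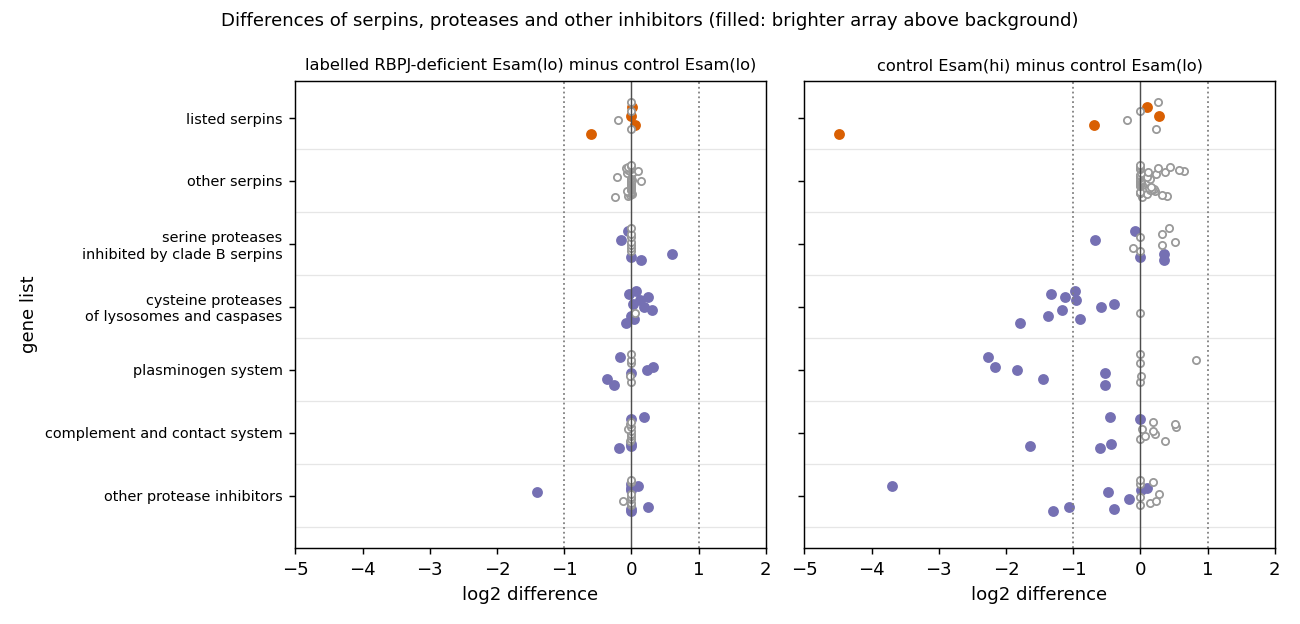
Log2 differences (x axis) of the listed serpins (orange), other serpins and 5 lists of proteases and inhibitors (rows), labelled RBPJ-deficient minus control Esam(lo) at left and control Esam(hi) minus control Esam(lo) at right. Filled points have the brighter array above background, and dotted lines mark 2-fold. At left Spint1 alone passes 2-fold (-1.40), while at right Wfdc17 lies at -3.70 and Serpinb10, drawn from a control Esam(hi) reading below background, at -4.48.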

How the data were processed

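RNA of 3 sorted DC populations was read on 1 array each. The deposited values are log2 expression values made by the authors with RMA and Affymetrix Expression Console, per the submitters' processing notes (versions not given in the sources used here). It is not stated which arrays entered RMA together. Of 35556 probe sets, 21789 have 1 annotated gene, 1621 several and 12146 none. Only the first were used, the brightest probe set standing for a gene (19938 genes).

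Differences of the deposited values were computed in Python 3.11.15 with pandas 2.3.3 and statsmodels 0.14.6. A gene was counted when at least 2-fold apart with the brighter array above background. Where the dimmer array was below background, folds are "at least" values against that background. No p-value, standard error or standard deviation was computed. Promoter sequences are RefSeq's (GRCm38.p6) and were listed for 7 of the 9 genes. The counting was tested on simulated data, with changes placed only in genes brighter on average than any listed serpin. That test does not show how the counting does for genes near background.

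The members and gene lists were chosen with earlier results of these data known. Named genes are the listed serpins, list members 2-fold apart in a comparison (at most 6 a list), and the 5 genes most like Serpinb10 (provisional symbols left out). Other list members named (markers, serine proteases, Plau, Plat, coagulation genes and C1 proteases) fall outside this rule and were named after their values were seen. Alternatives were other filters, normalizations, fold thresholds and probe set averages.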

Additional observations from a re-analysis of the deposited data

How the results depend on the processing

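The count of listed serpins 2-fold apart was the same under every alternative except the 1.5-fold threshold. There it was 2 for control Esam(hi) minus control Esam(lo) (Serpinb10 and Serpinb1a), 1 for labelled minus control Esam(lo) (Serpinb10) and 2 for labelled minus control Esam(hi). The count of other serpins was 0 under all 10 settings in each comparison. Of 108 recomputed differences of single listed serpins, 0 moved by over 1.5-fold, and that of Serpinb10 between the control arrays ranged from -4.59 to -4.12, all from a control Esam(hi) reading below background. Part of that 0 was fixed in advance. Each of the 8 has 1 probe set, so averaging over probe sets could not move a difference. Median centring shifts differences by about 0.11 at most, short of the 1.5-fold limit. Listed serpins below background got no value from the trend fitted above background.

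Counts over all genes depended more on the settings. For control Esam(hi) minus control Esam(lo), 1141 became 604 with the level trend removed, 667 with that trend fitted over all genes (an alternative chosen after seeing the data), 3349 at 1.5-fold and 208 at 3-fold. For labelled minus control Esam(hi), 1313 became 732, 790, 3542 and 277 under the same settings. For labelled minus control Esam(lo), 25 became 16 with the stricter filter, 85 at 1.5-fold and 5 at 3-fold. The share of lower genes between the control arrays was 93.4% as deposited, 81.3% with quantile normalization, 64.4% with the level trend removed and 73.0% with it fitted over all genes. For labelled minus control Esam(hi) it was 8.38%, 22.7%, 38.3% and 28.2%. The causes were not tested. No paired analysis was possible because each group has 1 array. Values of Serpinb6b and Serpinb9 lie near background, which limits what their differences show.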
